A study of Sus scrofa with 9 samples.

Results

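The genes described here are subunits and regulators of the sodium pump (Na,K-ATPase), together with the epithelial-type sodium-proton exchanger SLC9A3, in the left ventricle of the newborn pig. Of 6 genes listed by symbol, 4 have a row under that symbol in the table of 22629 rows: the pump beta subunits ATP1B1 and ATP1B2, the pump regulator FXYD1 (phospholemman), and SLC9A3. ATP1B3 and FXYD5 have no row under their symbols and were not analysed here. SLC9A3 is neither a pump subunit nor an FXYD protein, so it is described apart from the other 3. RNA from left ventricular tissue of wild type, untreated pigs was sequenced on the day of birth (day 0, replicates 4, 5 and 6), on postnatal day 7 (replicates 2, 5 and 6) and on postnatal day 15 (replicates 1, 2 and 6), which gives 9 libraries. Whether the 3 replicates of an age are different animals is not stated in the labels. The p-values therefore describe only how these samples spread, and part of that spread may be technical.

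The sodium pump exports sodium and imports potassium across the cell membrane at the cost of ATP, and thereby keeps the gradients on which the action potential, calcium extrusion by the sodium-calcium exchanger and pH control depend. Its catalytic alpha subunit carries the ion and cardiac glycoside binding sites. Its beta subunit (ATP1B genes) is a glycosylated partner needed to fold the alpha subunit and bring it to the membrane. FXYD proteins are small membrane proteins that bind the pump and tune its ion affinity. In heart muscle the main one is phospholemman, which lowers pump activity until it is phosphorylated by protein kinases A and C. Sodium-proton exchangers bring sodium in and acid out. SLC9A3 is best known from kidney and intestinal epithelium.

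The values were in TPM, each gene's length-corrected share of the transcripts of its library, so levels of different genes can be set side by side. They carry no record of sequencing depth, and the depth of each library is unknown. Between 11290 and 12164 genes reached 1 TPM in each library. The most abundant gene, listed only by an Ensembl identifier, took 24.0% to 46.0% of all TPM. Its share was 24.0% to 34.5% at day 0, 32.6% to 37.2% at day 7 and 30.6% to 46.0% at day 15. The lowest share was in day 0 replicate 6 and the highest in day 15 replicate 1. A larger share of this gene leaves less TPM for all other genes of that library. Cardiomyocyte markers were present as the tissue label says: 7 of 8 listed markers had a row, none was at 0 in any library, and their summed level was 26909 to 31527 TPM at day 0, 21295 to 28234 TPM at day 7 and 25668 to 27973 TPM at day 15. Ages were compared with limma on log2(TPM + 1) over the 12268 genes with at least 1 TPM in at least 3 libraries, and a change was called at a Benjamini-Hochberg adjusted p under 0.05 over all of them. All 4 genes passed this filter. SLC9A3 was the only one of them under 1 TPM in any library, reaching 1 TPM in 7 of 9, and its 3 newborn libraries alone were enough to pass it.

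By day 7, ATP1B1 and SLC9A3 had fallen relative to day 0, while the levels of ATP1B2 and FXYD1 did not pass the test. These 2 of 4 genes stand against 16.6% of all genes tested that were called in this comparison. Of all genes, 8.88% fell and 7.67% rose. Only ATP1B1 of these 2 belongs to the pump complex. The 4 genes were chosen with earlier results of these data known. The shares of all genes given here and below are therefore a background and no test of enrichment. Between day 7 and day 15, 0 of the 4 were called by limma, against 0.171% of all genes. None of the 4 had an unadjusted p under 0.05 there (the smallest was 0.0862, for SLC9A3), and with library weights SLC9A3 was called. At day 15 against day 0, ATP1B1 and SLC9A3 were again lower, which is 2 of 4 genes against 23.9% of all genes called, 18.4% that fell and 5.53% that rose. That balance depends on the scaling: 76.9% of all calls at day 15 against day 0 were falls on the deposited scale, and 49.7% after median-of-ratios scaling. ATP1B1 fell under both (log2 fold changes of -0.99 and -0.75), and SLC9A3 kept its direction but not its call. The day 7 and day 15 contrasts share the day 0 libraries, so the second is not independent of the first.

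**Figure D1:**
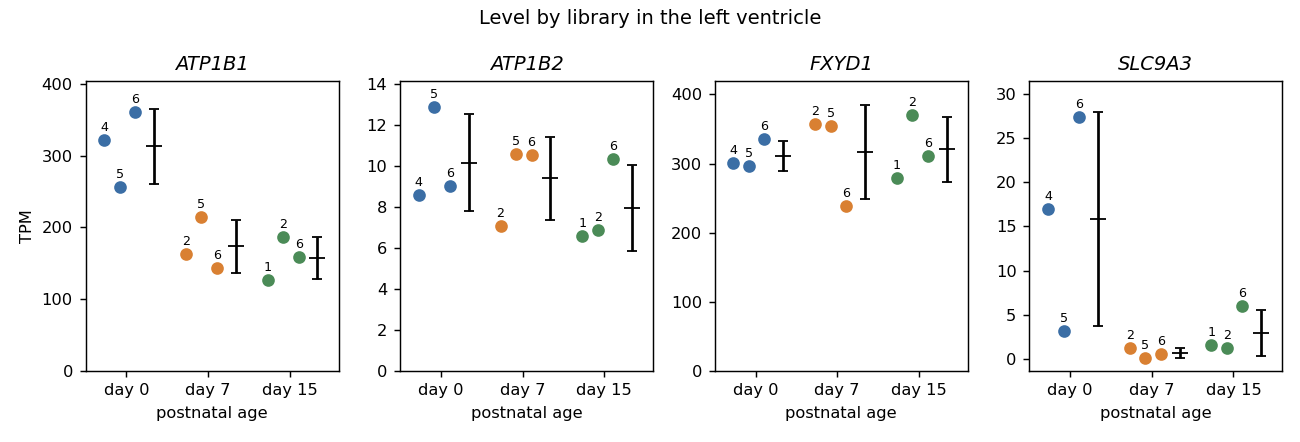
TPM (vertical axes, each with its own scale) of ATP1B1, ATP1B2, FXYD1 and SLC9A3 in each of the 9 libraries by postnatal age; points are libraries with their replicate numbers, and the bar beside them is the mean with its SD (n = 3 per age). The day 0 libraries of ATP1B1, at 257 to 361 TPM, lie above all the day 7 and day 15 libraries, whereas FXYD1 overlaps at all 3 ages.

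ATP1B1, the main beta subunit of the pump in heart, was the most abundant of the beta subunits measured. It stood at 322, 257 and 361 TPM in day 0 replicates 4, 5 and 6. At day 7 it stood at 163, 215 and 144 TPM in replicates 2, 5 and 6, and at day 15 at 126, 186 and 159 TPM in replicates 1, 2 and 6. Every day 0 library was above every later library, and the day 7 and day 15 libraries overlapped. Such a separation, with the later age lower, was found for 23.8% of all genes at day 7 against day 0 and for 30.5% at day 15 against day 0.

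ATP1B1 thus averaged 174 ± 37.0 TPM at day 7 and 313 ± 52.6 TPM at day 0 (SD, n = 3 each), a log2 fold change of -0.85 ± 0.21 (SE, limma adjusted p = 0.0207). At day 15 it averaged 157 ± 29.9 TPM (SD, n = 3), a log2 fold change of -0.99 ± 0.21 (SE) against day 0 (limma adjusted p = 0.00826). From day 7 to day 15 the log2 fold change was -0.14, with a 95% interval of -0.60 to 0.32 (limma adjusted p = 0.813), and under median-of-ratios scaling it was 0.04. Among the fits that leave out a library, the call at day 7 against day 0 was lost without day 0 replicate 4 (limma adjusted p = 0.0766), day 0 replicate 6 (0.103), day 7 replicate 2 (0.0585) or day 7 replicate 6 (0.0694). The call at day 15 against day 0 was lost without day 0 replicate 6 (0.0516). Smooth muscle and pericyte markers, 7 of 7 with a row and none at 0 in any library, summed to 337 to 503 TPM at day 0, 277 to 348 TPM at day 7 and 210 to 243 TPM at day 15. At day 7 against day 0, 1 of these 7 rose (ABCC9) and 1 fell (ACTA2), and at day 15 against day 0, 1 rose (ABCC9) and 4 fell (ACTA2, MYH11, PDGFRB and CNN1). Endothelial markers summed to 248 to 295 TPM at day 0, 364 to 434 TPM at day 7 and 230 to 282 TPM at day 15. Fibroblast markers summed to 596 to 957 TPM at day 0, 995 to 1338 TPM at day 7 and 817 to 935 TPM at day 15. Both lists were thus higher at day 7 than at day 0, whereas the Schwann and neural list, given below, was lower. The part of any of these cell types in the level of ATP1B1 was not tested. In the bulk tissue, fewer cells of a type and less RNA per cell cannot be told apart.

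ATP1B2, the beta subunit better known from glia and other neural cells (as the adhesion molecule on glia, AMOG), was present at a far lower level. It stood at 8.56, 12.9 and 9.01 TPM in day 0 replicates 4, 5 and 6, at 7.06, 10.6 and 10.5 TPM in day 7 replicates 2, 5 and 6, and at 6.56, 6.87 and 10.3 TPM in day 15 replicates 1, 2 and 6. The 3 ages overlapped, and day 0 replicate 5 held the highest level. Its mean was 9.39 ± 2.02 TPM at day 7 and 10.1 ± 2.36 TPM at day 0 (SD, n = 3 each), a log2 fold change of -0.10 with a 95% interval of -0.60 to 0.40 (limma adjusted p = 0.782). At day 15 against day 0 the log2 fold change was -0.32, with an interval of -0.82 to 0.17 (limma adjusted p = 0.315). When TPM were rescaled without the mitochondrial and 20 most abundant genes, the log2 fold change at day 7 against day 0 was 0.06.

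ATP1B2 amounted to 2.50% to 5.00% of the ATP1B1 level in the day 0 libraries, 4.34% to 7.32% at day 7 and 3.69% to 6.49% at day 15. These ranges overlapped, and ATP1B1 exceeded ATP1B2 in 9 of 9 libraries. Schwann and neural markers, of which 6 of 7 had a row, summed to 8.35 to 20.8 TPM at day 0, 0.438 to 6.43 TPM at day 7 and 2.23 to 4.96 TPM at day 15. CDH19 and TUBB3 of that list were at 0 in day 7 replicate 6 and under 1 TPM in every library. The part of these cells in the level of ATP1B2 was not tested.

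FXYD1, phospholemman, stood near the level of ATP1B1 at day 0, above it at both later ages, and far above ATP1B2 throughout. It was the steadiest of the 4 genes, with a highest level only 1.56-fold its lowest over the 9 libraries. It stood at 301, 297 and 336 TPM in day 0 replicates 4, 5 and 6. At day 7 it stood at 357, 355 and 238 TPM in replicates 2, 5 and 6, and at day 15 at 280, 371 and 311 TPM in replicates 1, 2 and 6. The ages overlapped, and day 7 replicate 6 was the lowest library.

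FXYD1 averaged 317 ± 68.1 TPM at day 7 and 311 ± 21.2 TPM at day 0 (SD, n = 3 each), a log2 fold change of 0.0025 with a 95% interval of -0.42 to 0.42 (limma adjusted p = 0.993). At day 15 it averaged 320.4 ± 46.5 TPM (SD, n = 3), a log2 fold change of 0.03 against day 0 with an interval of -0.39 to 0.46 (limma adjusted p = 0.915). These intervals leave room for a change of either sign. The median log2 fold change of all genes at day 15 against day 0 was -0.19 on the deposited scale and 0.01 after median-of-ratios scaling, so a level that is flat in TPM lies above the median gene. After median-of-ratios scaling the FXYD1 log2 fold change at day 15 against day 0 was 0.28 (limma adjusted p = 0.138), and it passed the threshold after quantile normalization at 0.39 (limma adjusted p = 0.00951) and after rescaling without the mitochondrial and 20 most abundant genes at 0.29 (limma adjusted p = 0.0496).

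FXYD1 was also set against ATP1B1, its partner in the pump complex, within each library. Such ratios are not changed by rescaling a library, were chosen after the levels were seen and are given without a test. FXYD1 stood at 0.934, 1.16 and 0.930 transcripts per ATP1B1 transcript in day 0 replicates 4, 5 and 6, which averages 1.01 ± 0.129 (SD, n = 3). It stood at 2.19, 1.65 and 1.65 in day 7 replicates 2, 5 and 6 (1.83 ± 0.311), and at 2.21, 1.99 and 1.95 in day 15 replicates 1, 2 and 6 (2.05 ± 0.140, SD, n = 3 each). The day 0 libraries lay apart from all later ones, and the 2 later ages overlapped. ATP1B1 alone already set the day 0 libraries apart and FXYD1 was nearly flat. The separation of the ratio therefore largely restates the levels of ATP1B1. FXYD1 exceeded ATP1B1 in 1 of 3 libraries at day 0, in 3 of 3 at day 7 and in 3 of 3 at day 15.

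FXYD6, a further FXYD protein, held 41.9, 78.6 and 60.3 TPM in the day 0 libraries, 74.7, 80.7 and 61.1 TPM at day 7 and 45.8, 62.1 and 46.8 TPM at day 15. It passed the test in 0 of the 3 contrasts, with log2 fold changes of 0.29 at day 7 against day 0 (limma adjusted p = 0.391), -0.48 at day 15 against day 7 (limma adjusted p = 0.406) and -0.19 at day 15 against day 0 (limma adjusted p = 0.570). With library weights, under which 3095 of all genes were called in place of 21, FXYD6 was called at day 15 against day 7 (limma adjusted p = 0.0112). FXYD6 stood at 13.9% to 26.5% of the FXYD1 level at day 0, 20.9% to 25.7% at day 7 and 15.1% to 16.7% at day 15. The day 7 libraries were above the day 15 libraries, and the day 0 range reached from below the day 15 range to above the day 7 range. FXYD3 was under 1 TPM in all 9 libraries.

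**Figure D2:**
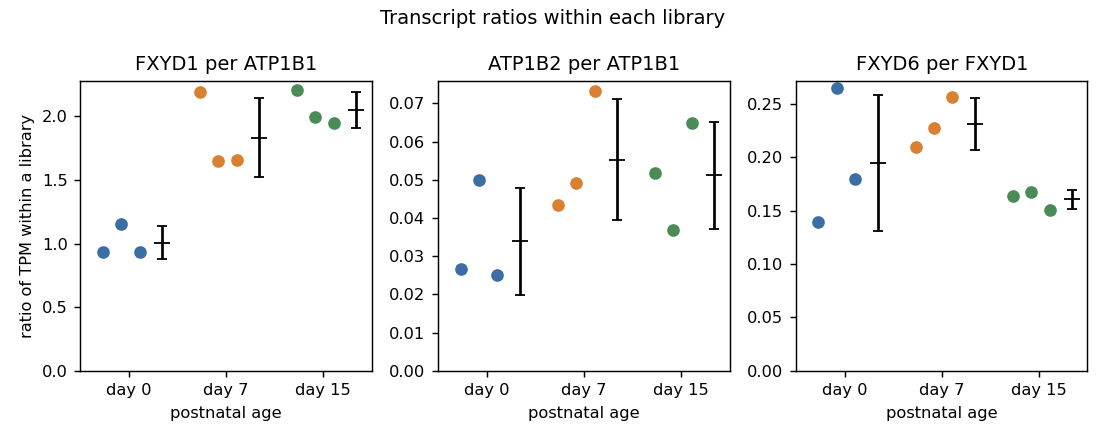
Ratios of TPM within each library (vertical axes, each with its own scale) by postnatal age for FXYD1 per ATP1B1, ATP1B2 per ATP1B1 and FXYD6 per FXYD1; points are libraries, in replicate order from left to right, and the bar beside them is the mean with its SD (n = 3 per age). FXYD1 per ATP1B1 lies at 0.930 to 1.16 at day 0, 1.65 to 2.19 at day 7 and 1.95 to 2.21 at day 15.

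ATP1B4, a beta family member of muscle that in placental mammals is known as a nuclear envelope protein rather than a pump subunit, varied widely between libraries of an age. It stood at 4.27, 6.39 and 5.84 TPM in the day 0 libraries, 9.06, 20.01 and 4.38 TPM at day 7 and 3.29, 23.5 and 13.7 TPM at day 15. Its log2 fold change at day 15 against day 0 was 0.84, with a 95% interval of -0.38 to 2.07 (limma adjusted p = 0.286). It was called without day 15 replicate 1, with the replicate number as a block and with library weights. Of the summed level of ATP1B1, ATP1B2 and ATP1B4, ATP1B1 made up 93.0% to 96.2% at day 0, 87.5% to 91.0% at day 7 and 86.0% to 92.8% at day 15. ATP1B4 made up 1.28% to 2.32% at day 0, 2.76% to 8.14% at day 7 and 2.42% to 10.8% at day 15. Both later ages lay outside the day 0 ranges, and overlapped each other. A share of ATP1B4 also depends on the level of ATP1B1. Day 15 replicate 1 held less ATP1B4 (3.29 TPM) than any day 0 library, yet its share of 2.42% was above their range. ATP1B3, which has no row under its symbol, is not in the sum.

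**Figure D3:**
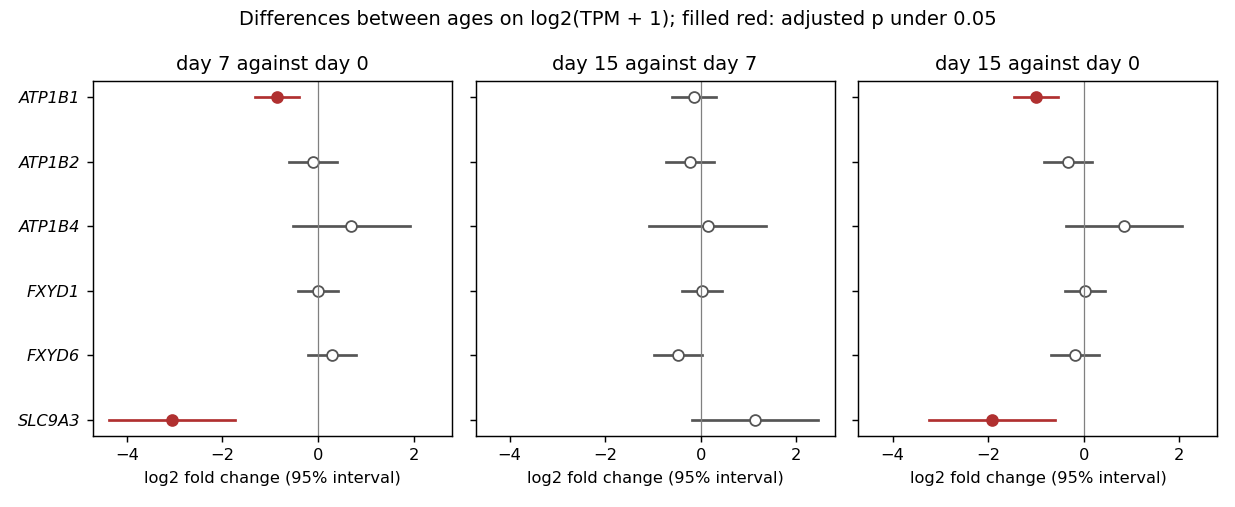
Log2 fold changes on log2(TPM + 1) with 95% intervals (horizontal axes) for 6 pump and exchanger genes that passed the filter, in the 3 contrasts between ages; filled red symbols have a limma adjusted p under 0.05. ATP1B1 and SLC9A3 are called at day 7 and at day 15 against day 0, and none of the genes drawn is called at day 15 against day 7.

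SLC9A3 showed the largest difference of the 4 genes and also the widest spread. It stood at 17.0, 3.14 and 27.4 TPM in day 0 replicates 4, 5 and 6. At day 7 it stood at 1.27, 0.112 and 0.484 TPM in replicates 2, 5 and 6, and at day 15 at 1.55, 1.23 and 5.98 TPM in replicates 1, 2 and 6. All day 0 libraries were above all day 7 libraries. Day 15 replicate 6 lay above day 0 replicate 5, so day 15 and day 0 overlapped.

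SLC9A3 averaged 0.620 ± 0.589 TPM at day 7 and 15.9 ± 12.2 TPM at day 0 (SD, n = 3 each), a log2 fold change of -3.05 ± 0.61 (SE, limma adjusted p = 0.00942). The size depends on the pseudocount, since the day 7 levels are close to 0: it was -4.38 with a pseudocount of 0.1 and -1.68 with 5. Without day 0 replicate 6 it was -2.48 and the call was lost (limma adjusted p = 0.0532), while without day 0 replicate 5, the low newborn library, it was -3.87 (limma adjusted p = 3.65e-04).

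At day 15 SLC9A3 averaged 2.92 ± 2.66 TPM (SD, n = 3), a log2 fold change of -1.91 ± 0.61 (SE) against day 0 (limma adjusted p = 0.0393). This call was lost in 13 of 22 alternatives, over which the limma adjusted p ranged from 0.00232 to 0.186, and the direction held in all 22. Among them were the fits without day 0 replicate 4 (0.115), day 0 replicate 6 (0.186), day 7 replicate 6 (0.0521), day 15 replicate 1 (0.110) or day 15 replicate 2 (0.0999), and median-of-ratios scaling (0.0783). From day 7 to day 15 the log2 fold change was 1.14, with a 95% interval of -0.19 to 2.46 (limma adjusted p = 0.451). The contrast of the 2 steps, the day 15 against day 7 change minus the day 7 against day 0 change, was 4.18 ± 1.05 for SLC9A3 (SE, limma adjusted p = 0.0671, against 1.92% of all genes called). It passed without day 0 replicate 5 (limma adjusted p = 0.00271). For ATP1B1 the same contrast was 0.71 (limma adjusted p = 0.337), and 0 of the 4 genes passed.

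Values of other cell types beside SLC9A3 were as follows. Of 7 epithelial markers, 6 had a row, and they summed to 4.86 to 14.7 TPM at day 0, 9.95 to 20.8 TPM at day 7 and 2.30 to 7.02 TPM at day 15. KRT8 held most of this sum, and the defining markers EPCAM, CDH1 and VIL1 were under 1 TPM in every library, with VIL1 at 0 in day 0 replicates 4 and 6. The summed Schwann and neural markers given above were higher in each day 0 library than in any later library. Among the day 0 libraries they were lowest in replicate 5, which was also the lowest for SLC9A3, for EXOC3 and for ATP1B1. At day 7 the orders differed: the marker sum was highest in replicate 5 (6.43 TPM), where SLC9A3 was lowest (0.112 TPM). At day 15 both were highest in replicate 6 and lowest in replicate 2. The part of these cells in the level of SLC9A3 was not tested. EXOC3, an exocyst subunit and the next gene to SLC9A3 in the RefSeq gene order of Sscrofa11.1, held 13.6 to 16.2 TPM at day 7 and 13.7 to 20.2 TPM at day 0, a log2 fold change of -0.13 (limma adjusted p = 0.668). NME7, the gene next to ATP1B1, had a log2 fold change of 0.41 at day 7 against day 0 (limma adjusted p = 0.204), a direction opposite to that of ATP1B1.

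The profile of each gene over the 9 libraries was compared with those of 7150 named genes with a mean of at least 5 TPM, by the mean absolute difference of log2(TPM + 1) after centring each gene on its own mean. Nearest to ATP1B1 were the heat shock cognate chaperone HSPA8 (0.0540), the mitochondrial ribosomal protein MRPL35 (0.0550) and AKAP8L (0.0575), against 0.357 for the median gene. HSPA8 stood at 1009, 867 and 1122 TPM in the day 0 libraries, 469, 657 and 441 TPM at day 7 and 384, 627 and 482 TPM at day 15. As for ATP1B1, replicate 5 was the lowest newborn library and the highest day 7 library. HSPA8 was picked by its nearness over these same libraries, so this match is partly built into the choice. Nearest to FXYD1 were the cytochrome oxidase subunit COX5A (0.0429) and RALY (0.0531), and in that order ATP1B1 ranked 6213. Nearest to ATP1B2 were DMD, which encodes dystrophin (0.126), DPF3 (0.134) and EPS8 (0.137), none of which passed the test in any of the 3 contrasts.

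Nearest to SLC9A3 were the mitochondrial carrier UCP3 (0.582), the stress transcription factor gene DDIT3 (0.656) and the RNA-binding protein gene KHDRBS3 (0.671), against 1.25 for the median gene. UCP3 stood at 38.0, 13.4 and 55.9 TPM in day 0 replicates 4, 5 and 6, and KHDRBS3 at 35.9, 13.0 and 38.8 TPM. In each of these 3 genes, as in SLC9A3, day 0 replicate 5 was the lowest newborn library. The 3 genes were picked by their nearness over these same libraries, so such a match is partly built into the choice. The 4 genes differed at day 15, where replicate 6 was the highest library for SLC9A3, and the lowest for UCP3 (3.71 TPM) and DDIT3 (6.47 TPM).

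**Figure D4:**
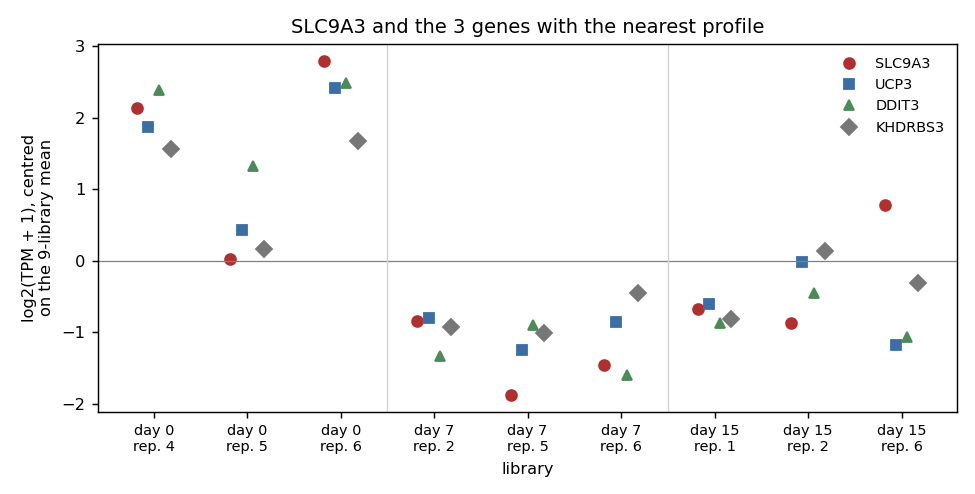
Log2(TPM + 1) of SLC9A3, UCP3, DDIT3 and KHDRBS3, each centred on its mean over the 9 libraries (vertical axis), in every library by age and replicate (horizontal axis). UCP3, DDIT3 and KHDRBS3 were picked by their nearness to SLC9A3 over these same libraries. Day 0 replicates 4 and 6 are high for all 4 genes and replicate 5 lies lower, and at day 15 replicate 6 SLC9A3 lies apart from the others.

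Among 17 sodium-proton exchangers and their partners with a row, 11 were tested, and at day 7 against day 0 1 rose and 0 fell, against 16.6% of all genes called, 7.67% that rose and 8.88% that fell. The median log2 fold change of the 11 was 0.05, against -0.04 over all genes. The gene that rose was SLC9B2, an exchanger of the family's organellar branch, at 4.87 to 7.49 TPM at day 7 and 2.10 to 4.10 TPM at day 0 (0.91, limma adjusted p = 0.0389, lost in 8 of 21 alternatives). At day 15 none of the 11 was called against either age. The most abundant of them, TESC (tescalcin, a calcium-binding partner of sodium-proton exchangers), held 103 ± 28.0 TPM at day 0, 92.6 ± 15.0 TPM at day 7 and 102 ± 32.8 TPM at day 15 (SD, n = 3 each).

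Among 19 genes of other sodium entry and sodium-coupled transport, 11 were tested. At day 7 against day 0, 0 rose and 1 fell, against 16.6% of all genes called. By day 15, 0 rose and 3 fell relative to day 0, against 23.9% of all genes called and 18.4% that fell, with a median of -0.20 against -0.19 over all genes. The sodium-calcium exchanger SLC8A1, which uses the sodium gradient to remove calcium, held 112, 160 and 161 TPM at day 15 and 241, 211 and 288 TPM at day 0 (-0.78, limma adjusted p = 0.0171). That call was lost in 3 of 22 alternatives, among them the fits without day 0 replicate 6 and without day 15 replicate 1. SLC20A1, a sodium-phosphate cotransporter, held 7.89 to 10.9 TPM at day 15 and 13.0 to 22.7 TPM at day 0 (-0.86, limma adjusted p = 0.0145, lost in 3 of 22 alternatives, among them the fits without day 0 replicate 6 and without day 15 replicate 6). SLC5A6, the sodium-dependent multivitamin transporter, held 3.84 to 4.81 TPM at day 7 and 12.8 to 20.3 TPM at day 0 (-1.69, limma adjusted p = 0.00138), and its calls at day 7 and at day 15 against day 0 were kept in all 22 alternatives.

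Among 29 tested genes of pump regulation, 3 rose and 1 fell at day 7 against day 0, against 16.6% of all genes called, and 1 rose and 3 fell at day 15 against day 0, against 23.9% called. Both counts are at or below the share of all genes. Those that rose at day 7 were AGRN, whose product agrin binds the pump in mouse neurons (1.88), PRKCA, the conventional protein kinase C of heart muscle (0.85), and NEDD4L, a ubiquitin ligase of sodium channels (0.77), with limma adjusted p = 0.00462, 0.0248 and 0.0357. The calls of PRKCA and NEDD4L were lost in 6 of 21 and 8 of 22 alternatives. AGRN stood at 49.5, 71.6 and 80.3 TPM in the day 15 libraries and at 7.82, 13.7 and 9.77 TPM in the day 0 libraries, which did not overlap. It was the gene that rose by day 15 (2.58, limma adjusted p = 6.93e-04), and both of its calls were kept in all 22 alternatives. HSD11B2, which protects the mineralocorticoid receptor from glucocorticoids, held 0.596 to 1.03 TPM at day 15 and 2.69 to 4.37 TPM at day 0 (-1.29, limma adjusted p = 0.00367, kept in all 21 alternatives). PPP1R1A, an inhibitor of the phosphatase that removes phosphate from phospholemman, held 14.0 to 20.9 TPM at day 15 and 23.8 to 30.1 TPM at day 0 (-0.69, limma adjusted p = 0.0337, lost in 9 of 22 alternatives). The third gene that fell by day 15 was PPP1CA, a catalytic subunit of that phosphatase, which lies outside the rule for named genes and was named after its values were seen. Of 6 tested ion pumps of other families, 0 were called at day 7 against day 0, against 16.6% of all genes, and 1 fell by day 15, against 18.4% that fell, the plasma membrane calcium pump ATP2B1 (-0.55, limma adjusted p = 0.0460, lost in 13 of 22 alternatives).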

How the data were processed

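The authors deposited 1 table of TPM with a column for each of the 9 libraries. Per the labels' protocols, RNA was extracted from frozen left ventricle and libraries were made with a stranded mRNA kit. Per the submitters' processing notes, the tools were Trimmomatic 0.33, HISAT2 2.0.5 and kallisto 0.43.1, with no steps assigned to them. The genome build, the annotation and any strand-specific counting were not given in the sources used here, so reads shared by close paralogs or overlapping genes cannot be traced. TPM is a share of a library's total, so depth is unknown and no counting interval is given.

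Of 7534 rows with Ensembl identifiers, 889 gained a new symbol from a reference table. Genes with at least 1 TPM in at least 3 libraries were fitted as log2(TPM + 1), with 1 mean per age, in limma 3.58.1 (R 4.3.3, mean-variance trend, 6 residual degrees of freedom). Fold changes on this scale understate those of low genes. Adjusted p-values are Benjamini-Hochberg values over all 12268 genes, with a threshold of 0.05. An exact permutation of 3 against 3 libraries cannot go below a two-sided p of 0.1 and was not used. The fit was tested on simulated data.

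The genes and lists were chosen with earlier results of these data known. Named genes were the members, the other pump genes with a row, for each other list its most abundant gene and up to 3 called genes with the smallest adjusted p per contrast, the 3 nearest profiles per member, and neighbours in RefSeq gene order. The text gives a part of them, and some genes of these lists are not reported here. Alternatives were other pseudocounts, filters, scalings and variance models, the 2 ages alone, the replicate number as a block, and each library left out. A rescaling that leaves out only the most abundant gene, and the ratios between genes, were chosen after seeing the data.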

Additional observations from a re-analysis of the deposited data

How the results depend on the processing

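At day 7 against day 0, 2 of the 4 genes were called. The count was 1 with the replicate block, and 0 to 2 when each library was left out in turn. At day 15 against day 0, 2 were called. The count was 1 with a pseudocount of 0.1, with no filter, with median-of-ratios scaling, with TPM rescaled without the most abundant gene and with a robust fit, 0 with the replicate block, and 0 to 2 when each library was left out in turn. It stayed at 2 with quantile normalization and with TPM rescaled without the mitochondrial and 20 most abundant genes, but there FXYD1 was called and SLC9A3 was not (limma adjusted p = 0.0751 and 0.0969). At day 15 against day 7 and in the contrast of the 2 steps 0 were called, and 1 with library weights (SLC9A3). Leaving out libraries gave 0 at day 15 against day 7 and 0 to 1 in the contrast of steps. Of all genes, 2031 were called at day 7 against day 0, with 857 under the replicate block, 1296 without the filter, 3490 with library weights and 3437 to 3788 under the other scalings. Of the calls there, 53.7% were falls, and 34.4% when TPM were rescaled without the mitochondrial and 20 most abundant genes. For day 15 against day 0, 2933 were called, with 919 under the block and 6410 with library weights. For day 15 against day 7, 21 were called, with 1 when the filter was a mean of at least 5 TPM and 3095 with library weights. Leaving out each library gave 392 at the fewest at day 7 against day 0 and 816 at day 15 against day 0, both without day 0 replicate 6. The cause of these changes was not tested, except that fits with a library left out have fewer samples.

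Replicate numbers are only partly shared between ages, and the labels do not say what they mark. The deviations of same-numbered libraries from their age means correlated at -0.21 to 0.17 over genes. The fit with the replicate block leaves 2 residual degrees of freedom, and replicates 1 and 4, each present at a single age, add nothing to it. With the block, ATP1B1 had limma adjusted p = 0.0846 at day 7 and 0.154 at day 15 against day 0, and SLC9A3 0.0163 and 0.0672. The 4 called differences of the 4 genes changed sign in 0 fits. Those not called changed sign 31 times over all alternatives, and were not called where they did. Depth is unknown, which limits the low values of SLC9A3 most.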
